A study of Drosophila melanogaster with 6 samples.

Results

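The 200 most abundant long noncoding RNAs (lncRNAs) of the adult testis libraries of Drosophila melanogaster were examined. The members were selected as the 200 genes with the highest mean CPM over the 6 libraries (a count divided by the library total and multiplied by 1000000) among the genes whose FlyBase symbol starts with lncRNA:, leaving out roX1 and roX2. They were 200 of 1795 such genes and of 17559 genes counted in all. They were chosen by this mean level over all libraries, so their abundance is given as a description. The comparison of the genotypes was not used to choose them, although a gene that was high in 1 group could enter through that group. The overexpression testes were actin5C-Gal4>UAS-miR-2b-1, in which the broadly active actin 5C promoter drives Gal4, and Gal4 switches on a transgene of the microRNA miR-2b-1. The controls were actin5C-Gal4>w1118, which carried the same driver without the transgene. Both crosses were kept at 28 °C. Total RNA was extracted from dissected testes of males aged 3 to 5 days and made into cDNA libraries for sequencing. The testes of many males were pooled in each of the 3 replicates per genotype. The parental strain differs between the groups together with the transgene in every replicate, so their parts cannot be told apart.

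A lncRNA is a transcript longer than a small RNA that is annotated without a protein product. The testis is known as the fly organ in which the most lncRNA genes are detected, and many of them are switched on in primary spermatocytes, the germ cells that transcribe the genes of meiosis and sperm construction in advance. Some lncRNAs act as RNA, by binding proteins or shaping nuclear bodies, others are transcribed across or beside a coding gene, and for most no function is known. A symbol made of CR and a number is a placeholder for a noncoding gene without a given name. Among the 200 members, 2 carried a given name, Hsromega and Yu.

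The libraries held 18047619 to 27789620 counts on genes, and every member had at least 38 counts in every library, so all 200 passed edgeR's filter on low counts. Markers of spermatogonia, spermatocytes, spermatids, cyst cells and hub were detected, with a summed level of 23042 to 26633 CPM for 21 spermatid genes under overexpression and 25871 to 29877 CPM in the control, and 0 of the 21 were called by edgeR or DESeq2, with 3 at an unadjusted p under 0.05 in edgeR. The 12 primary spermatocyte genes summed to 1519.9 to 1878 CPM under overexpression and 1583 to 1837 CPM in the control, with a median log2 fold change of 0.35. Of these 12, edgeR called 0 with 7 at an unadjusted p under 0.05, and DESeq2 called 1 higher and 1 lower. Of 8 muscle sheath genes, 3 were called lower by edgeR, 7 had an unadjusted p under 0.05, and 7 were called lower by DESeq2 and 5 with an accessory gland covariate. The 8 summed to 225 to 240.3 CPM under overexpression and 313 to 521 CPM in the control. Over all 17559 genes edgeR called 493, DESeq2 743 and the fit with the accessory gland covariate 902. The share of all genes at an unadjusted p under 0.05 is not given here. Genes of the accessory gland and ejaculatory duct, glands joined to the testis by the male duct, took 0.0610% to 1.16% of the counts under overexpression and 0.0351% to 0.985% in the control. The strand setting of the counting is not given in the sources used here, so reads of a lncRNA and of a gene on the other strand could not be told apart where their exons overlap. In bulk RNA, fewer cells of a type and less RNA per cell cannot be told apart either.

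The abundance of the members was uneven. Mean CPM ran from 2251 for lncRNA:CR9284 (FBgn0046297, chromosome 2R, 21803402 to 21804338) to 13.9 for the last member, with a median of 25.4, and 20 members lay above 100 CPM. The 200 members together took 1.36%, 1.63% and 1.80% of all counts in overexpression replicates 1, 2 and 3, and 1.71%, 1.74% and 1.67% in control replicates 1, 2 and 3. The group ranges overlapped, with 1.59 ± 0.222% under overexpression and 1.71 ± 0.0328% in the control (SD, n = 3 each), and the difference of the means changed sign without overexpression replicate 1. The 10 highest members held 53.8% to 58.5% of the members' counts in each library, and the members held 81.8% to 84.0% of the counts of all lncRNA genes of the rule.

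**Figure D1:**
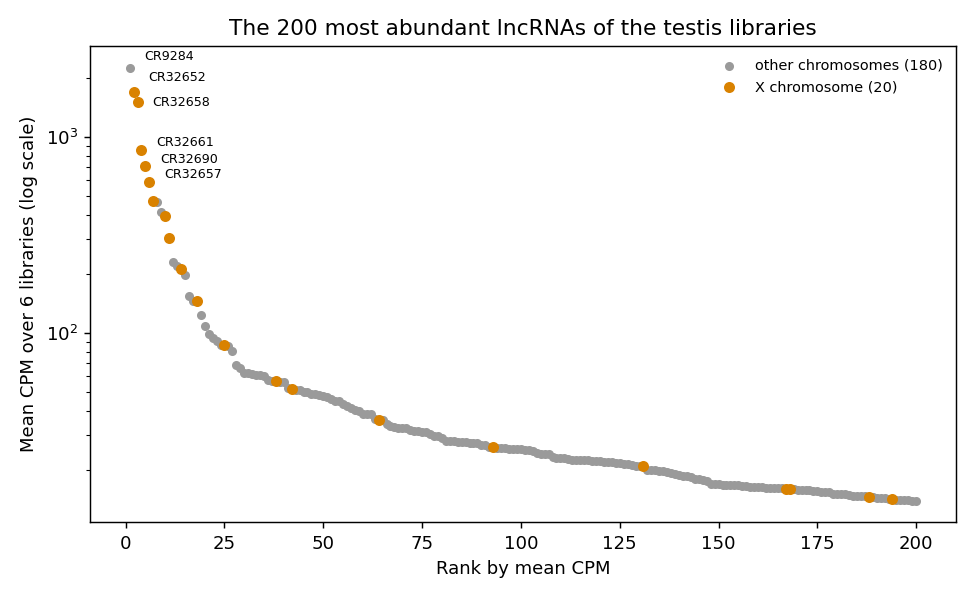
Mean CPM over the 6 libraries (y axis, log scale) of each of the 200 lncRNAs against its rank (x axis), with the 20 X-linked genes in orange and the other 180 in grey. The curve drops from 2251 CPM at rank 1 to under 100 CPM after rank 20, and 7 of the 10 highest points are X-linked.

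Of the 10 highest members, 7 lay on the X chromosome, where 20 of the 200 members and 200 of the 1595 other lncRNA genes (12.5%) lie. These 7 spanned a stretch of X from 9557539 to 12412181. CR9284, on chromosome 2R, had 1770.0, 2249 and 2159 CPM in the 3 overexpression libraries, against 2247, 2538 and 2596 CPM in the 3 control libraries. It was the highest member in each of the 6 libraries, and its groups overlapped. lncRNA:CR32652 (FBgn0052652, chromosome X, 12411018 to 12412181) had 1372, 1542 and 1753 CPM in the 3 overexpression libraries, against 1659.6, 1923 and 1942 CPM in the 3 control libraries. lncRNA:CR32658 (FBgn0040859, chromosome X, 12091264 to 12092272) had 1119.9, 1267 and 1837 CPM in the 3 overexpression libraries, against 1299, 1639 and 1896 CPM in the 3 control libraries. In both of these the ranges of the groups overlapped, and overexpression replicate 1 was the lowest library. CR32658 and lncRNA:CR32657 (FBgn0052657, chromosome X, 12087211 to 12087695) lie 3568 bases apart on the plus strand, inside the span of Ten-a, a teneurin that acts in matching of synaptic partners. CR32657 had 351, 635 and 641 CPM in the 3 overexpression libraries, against 673, 631 and 606 CPM in the 3 control libraries. A second close pair on X was lncRNA:CR32661 (FBgn0030356, chromosome X, 11917806 to 11918678) and lncRNA:CR43157 (FBgn0262687, chromosome X, 11919125 to 11919657), 446 bases apart on the minus strand. CR32661 had 679.7, 764 and 918 CPM in the 3 overexpression libraries, against 865, 958 and 959 CPM in the 3 control libraries. In CR32657, as in the genes above, overexpression replicate 1 stood lowest, and in CR32661 the groups overlapped as well. The other 4 of the 10 highest were lncRNA:CR32690 (FBgn0052690, chromosome X, 10204400 to 10205289), lncRNA:CR42767 (FBgn0261835, chromosome X, 9557539 to 9558466), lncRNA:CR44455 (FBgn0265648, chromosome 2R, 23127604 to 23128077) and lncRNA:CR42850 (FBgn0262097, chromosome 2L, 5379095 to 5381074), with mean CPM of 705 for CR32690, 467 for CR42767, 462 for CR44455 and 410.2 for CR42850. Scaled to exon length, the order shifted. The highest levels per kilobase of exon were 2532 CPM per kb for CR9284, 1906 for CR32652, 1797 for CR32658, 1667 for the short CR32657 and 1307 for CR32661, while the median member had 38.7 CPM per kb. Of the 10 highest members, only CR42850 differed between the genotypes in the test across all genes.

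The last 2 members were lncRNA:CR43878 with a mean of 13.9 CPM and lncRNA:CR43640 with 13.9 CPM. Just outside were lncRNA:CR44822 with 13.8 CPM and lncRNA:CR43766 with 13.7 CPM.

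In the annotation the members were short and mostly simple genes. Their exons summed to a median of 704 bases (252 to 21710), against 601 bases for the other 1595 lncRNA genes. One exon block was annotated for 123 of the 200 members (61.5%), against 69.6% of the other lncRNA genes, and 12.5% had more than 2 blocks, against 6.65%. Most members, 130 of 200, did not overlap a protein-coding gene, and 64 (32.0%) lay within or across the span of one without sharing exon bases, against 20.2% of the other lncRNA genes. Of these 64, 25 were on the strand of the host and 39 on the other strand. Exon overlap with a coding gene was annotated for 6 members, 4 on the same and 2 on the other strand, and 12 members (6.0%) shared exon bases with any other gene, against 15.7% of the other lncRNA genes. No member held an annotated small RNA gene on its strand, where 3 of the other lncRNA genes did. By arm, 54 members lay on 2L, 31 on 2R, 44 on 3L, 50 on 3R, 20 on X and 1 on chromosome 4. These shares are descriptions and were not tested.

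The main question was which of these abundant RNAs differed between miR-2b-1 overexpression and control testes. In edgeR's quasi-likelihood test across all 17559 genes, with Benjamini-Hochberg adjustment and a threshold of 0.05, 34 of the 200 members (17.0%) were called, 10 higher (5.0%) and 24 lower (12.0%) under overexpression. Over all genes 2.81% were called, 1.29% higher and 1.51% lower, and over the genes that passed the filter on low counts 3.87%. Over the 1163 other lncRNA genes with at least 10 counts 8.43% were called, 2.75% higher and 5.67% lower. Among 5685 protein-coding genes at or above the mean CPM of the last member, 2.37% were called, 1.27% higher and 1.11% lower. In each of the 34 called members, the 3 libraries of one genotype lay apart from the 3 of the other. This rests on the same values as the calls and adds no support to them. Of all 200, the overexpression libraries all lay below the controls in 59 (29.5%) and all above them in 18 (9.0%), where all genes gave 8.83% below and 11.0% above, the protein-coding genes of that level 10.9% and 13.4%, and the other lncRNA genes 18.3% and 8.86%.

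The log2 fold change of the members had a median of -0.21 (quartiles -0.39 and 0.06), and 141 of 200 were negative. The median was 0.01 over the 12441 genes that passed the filter and -0.17 over the other 1163 lncRNA genes. The 50 highest members held 4 called genes, all lower, and the next 3 blocks of 50 ranks held 10, 9 and 11. The balance of directions moved with the way members enter the list. Of the 10 members outside the 200 highest lncRNAs of the control libraries alone, 7 were called higher, and of the 13 outside the 200 highest of the overexpression libraries alone, 9 were called lower. Among the 177 members in both rankings, 3 were called higher and 15 lower. The 17.0% of members called therefore includes genes that entered through 1 group. How much of its distance from the 8.43% of the other lncRNA genes comes from this was not tested. The 200 highest of the overexpression libraries alone held 15 called higher and 15 called lower. The 200 highest of the control libraries alone held 3 called higher and 28 called lower. A ranking on 1 group favours genes that are high in that group, so these 2 lists cannot decide the balance of directions. The count also moved with the libraries, and was 18 without control replicate 2, 19 without overexpression replicate 2 and 22 without overexpression replicate 1.

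**Figure D2:**
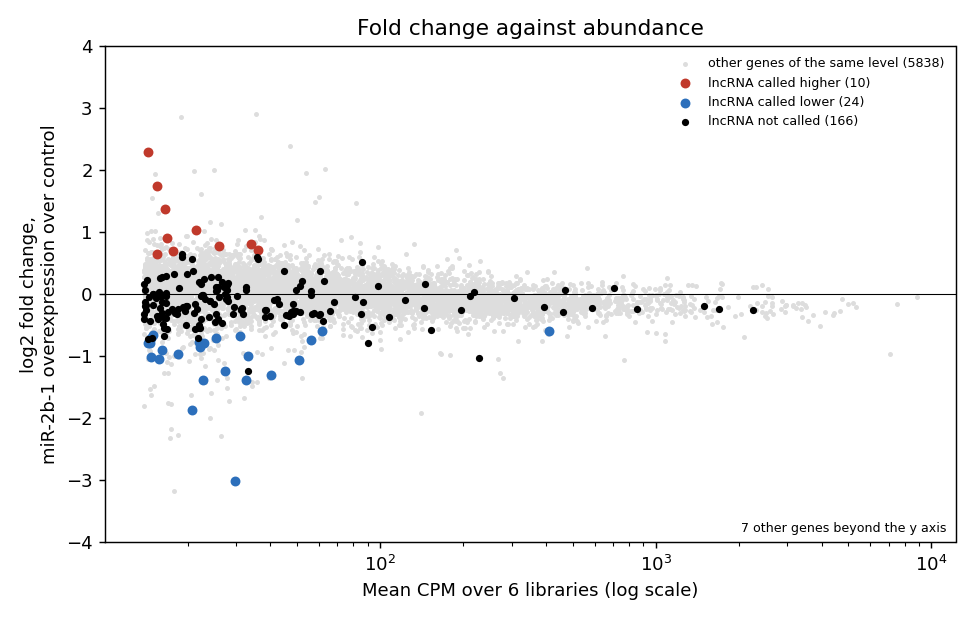
log2 fold change of miR-2b-1 overexpression over control (y axis) against mean CPM over the 6 libraries (x axis, log scale), for the 200 lncRNAs in red (10 called higher), blue (24 called lower) and black (166 not called), over 5838 other genes at or above the level of the last lncRNA in grey, 7 of them beyond the axis. Called lncRNAs gather at the lower abundances, and 1 of the 20 highest is called.

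Of the 10 members that were higher under overexpression, 4 changed by more than 2-fold. lncRNA:CR42844 (FBgn0262033, chromosome 2L, 9304437 to 9305007) had 19.7, 28.4 and 21.6 CPM in the 3 overexpression libraries, against 4.72, 4.27 and 5.26 CPM in the 3 control libraries. The lowest overexpression library stood well above the highest control library, and the log2 fold change, from the fit across all genes, was 2.29 with its standard error (SE) and p beside it (SE 0.194, edgeR adjusted p = 9.84e-07). lncRNA:CR44105 (FBgn0264914, chromosome 2R, 5031995 to 5032795) had 22.6, 29.2 and 18.1 CPM in the 3 overexpression libraries, against 7.36, 7.09 and 6.49 CPM in the 3 control libraries, which is a difference of 1.74 in log2 CPM (SE 0.195, edgeR adjusted p = 2.85e-05). The 3 control libraries lay close together, and overexpression replicate 2 was the highest. lncRNA:CR43974 (FBgn0264705, chromosome 3L, 8081924 to 8083200) had 22.6, 27.2 and 20.5 CPM in the 3 overexpression libraries, against 8.68, 8.99 and 9.35 CPM in the 3 control libraries, which is a difference of 1.38 in log2 CPM (SE 0.173, edgeR adjusted p = 0.000106). It lies in the span of Sarm, whose product drives axon degeneration, on the other strand. lncRNA:CR45248 (FBgn0266783, chromosome 3L, 10959231 to 10960005) had 26.4, 26.4 and 33.1 CPM in the 3 overexpression libraries, against 11.0, 14.3 and 16.5 CPM in the 3 control libraries, which is a difference of 1.03 in log2 CPM (SE 0.184, edgeR adjusted p = 0.00326). In it the control libraries spread more than in CR42844, CR44105 and CR43974, without reaching the overexpression libraries. In CR42844, CR44105 and CR43974 every control library lay below the mean CPM of the last member, 13.9. These 3 lncRNAs therefore entered the list through the overexpression libraries.

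Smaller rises were called in lncRNA:CR45103 (FBgn0266564, chromosome 3R, 18157693 to 18158297), lncRNA:CR44333 (FBgn0265421, chromosome 3R, 7285230 to 7285595), lncRNA:CR44081 (FBgn0264890, chromosome 2L, 6812640 to 6813110) and lncRNA:CR46043 (FBgn0267710, chromosome 3R, 20238507 to 20239091). CR45103 had 42.8 ± 2.49 CPM under overexpression and 24.6 ± 2.04 CPM in the control (SD, n = 3 each), which is a difference of 0.80 in log2 CPM (SE 0.154, edgeR adjusted p = 0.00610). CR44333, inside the span of rn, a zinc finger gene of limb development, had 21.7 ± 3.66 CPM under overexpression and 11.6 ± 1.06 CPM in the control (SD, n = 3 each), which is a difference of 0.90 in log2 CPM (SE 0.177, edgeR adjusted p = 0.00742). In both, the 3 libraries of each genotype kept apart. CR44081 had 31.8, 33.5 and 32.7 CPM in the 3 overexpression libraries, against 17.4, 20.8 and 19.0 CPM in the 3 control libraries, which is a difference of 0.78 in log2 CPM (SE 0.157, edgeR adjusted p = 0.00883). CR46043, within Nlg4, a neuroligin of synapses, had 44.4 ± 8.05 CPM under overexpression and 27.0 ± 2.66 CPM in the control (SD, n = 3 each), which is a difference of 0.72 in log2 CPM (SE 0.169, edgeR adjusted p = 0.0270). These 4 lost the call without overexpression replicate 2, with edgeR adjusted p of 0.0554 for CR45103, 0.0815 for CR44333, 0.0662 for CR44081 and 0.228 for CR46043, and CR46043 kept its call in 2 of the 6 fits without 1 library. The remaining 2, lncRNA:CR43940 and lncRNA:CR44319, rose by 0.70 and 0.64 on the log2 scale (edgeR adjusted p = 0.0323 and 0.0467). Each of these 2 was called in only 1 of the 6 fits without 1 library, and of the 9 other fits CR43940 was called in 6 and CR44319 in 4.

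**Figure D3:**
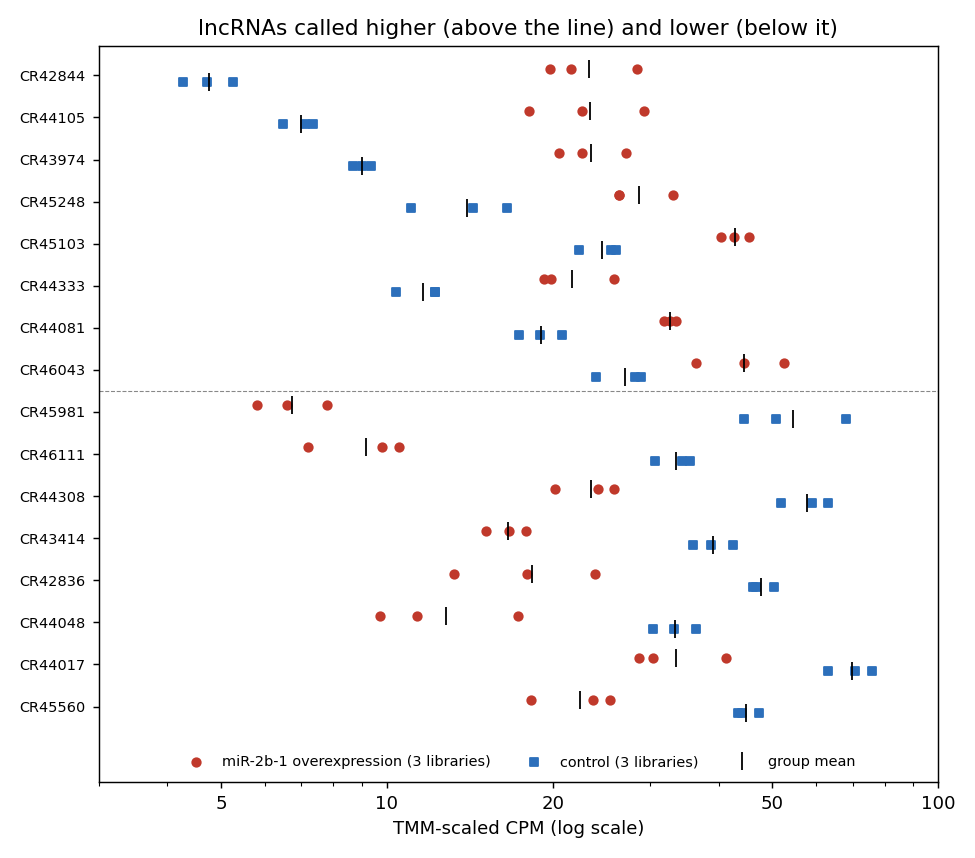
TMM-scaled CPM (x axis, log scale) in each library for the 8 lncRNAs with the lowest p among those called higher (above the dashed line) and the 8 among those called lower (below it), with miR-2b-1 overexpression libraries as red circles, control libraries as blue squares and group means as black ticks (n = 3 each). In all 16 the circles and squares do not overlap, and the widest gaps are those of CR45981 and CR42844.

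Of the 24 members that were lower under overexpression, 10 changed by more than 2-fold. The largest fall among the 200 was that of lncRNA:CR45981 (FBgn0267643, chromosome 3L, 2621721 to 2622629), with 6.59, 7.79 and 5.82 CPM in the 3 overexpression libraries, against 50.8, 68.1 and 44.4 CPM in the 3 control libraries. No overexpression library came near the lowest control library, with a difference of -3.02 in log2 CPM (SE 0.198, edgeR adjusted p = 4.81e-08). It lies inside the span and on the strand of Pxn, which encodes peroxidasin, an enzyme of basement membranes. lncRNA:CR46111 (FBgn0267780, chromosome 3R, 30026218 to 30026872), inside Axn, the Axin scaffold of the Wnt pathway, had 7.21, 10.5 and 9.80 CPM in the 3 overexpression libraries, against 30.6, 34.2 and 35.5 CPM in the 3 control libraries, which is a difference of -1.87 in log2 CPM (SE 0.182, edgeR adjusted p = 5.35e-06). lncRNA:CR44308 (FBgn0265367, chromosome 2L, 3537844 to 3538333) had 20.2, 25.8 and 24.2 CPM in the 3 overexpression libraries, against 58.9, 63.0 and 51.8 CPM in the 3 control libraries, which is a difference of -1.31 in log2 CPM (SE 0.159, edgeR adjusted p = 7.46e-05). In all 3 of these lncRNAs the groups were well apart. In CR45981 and CR46111 every overexpression library lay below the mean CPM of the last member, 13.9, so both entered the list through the control libraries. lncRNA:CR43414 (FBgn0263333, chromosome 2L, 20296643 to 20297299) had 16.7, 17.9 and 15.1 CPM in the 3 overexpression libraries, against 38.8, 42.5 and 35.9 CPM in the 3 control libraries, which is a difference of -1.24 in log2 CPM (SE 0.160, edgeR adjusted p = 0.000144).

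lncRNA:CR42836 (FBgn0262025, chromosome 3R, 20139148 to 20139921) had 18.0, 23.9 and 13.2 CPM in the 3 overexpression libraries, against 46.1, 46.8 and 50.3 CPM in the 3 control libraries, which is a difference of -1.38 in log2 CPM (SE 0.194, edgeR adjusted p = 0.000457). The controls were tight here, and overexpression replicate 2 was the highest of its group. lncRNA:CR44048 (FBgn0264840, chromosome 3R, 20878405 to 20879384), which lies 42 bases from TotZ, a gene of the Turandot stress peptides, had 11.3, 17.3 and 9.73 CPM in the 3 overexpression libraries, against 33.2, 36.3 and 30.4 CPM in the 3 control libraries, which is a difference of -1.38 in log2 CPM (SE 0.204, edgeR adjusted p = 0.000732). lncRNA:CR44017 (FBgn0264787, chromosome 3R, 6408978 to 6409578) lies on the other strand within gpp, which encodes the fly DOT1 histone methyltransferase, and had 33.4 ± 6.84 CPM under overexpression and 69.8 ± 6.33 CPM in the control (SD, n = 3 each), which is a difference of -1.06 in log2 CPM (SE 0.165, edgeR adjusted p = 0.000915). The groups of CR44048 and CR44017 did not overlap. lncRNA:CR45560 (FBgn0267120, chromosome 3R, 7387444 to 7388319) had 22.4 ± 3.74 CPM under overexpression and 44.9 ± 2.16 CPM in the control (SD, n = 3 each), which is a difference of -1.001 in log2 CPM (SE 0.165, edgeR adjusted p = 0.00160). For these 8 lncRNAs the call held whichever of the 6 libraries was left out, where the largest edgeR adjusted p was 0.0362, for CR44017 without overexpression replicate 2.

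The other 16 lower members had log2 fold changes between -1.04 and -0.59, with edgeR adjusted p from 0.00231 to 0.0486. The most abundant of them was CR42850, at rank 9, with 328, 351 and 310.2 CPM in the 3 overexpression libraries, against 486, 547 and 455 CPM in the 3 control libraries. Its log2 fold change was -0.59 (SE 0.137, edgeR adjusted p = 0.0251), and the call was lost in 3 of the 6 fits without 1 library, with an edgeR adjusted p of up to 0.228 without control replicate 2. Of all 34 called members, 14 were called in every one of the 6 fits without 1 library, 4 higher and 10 lower, and these 14 were also called in the 9 other fits tried. Of the 8 muscle sheath genes, 3 were called lower in the same contrast (Mhc, Mlc2 and Mlc1) and 5 did not pass in edgeR. Those 5 had log2 fold changes of -1.51 (up), -1.48 (Tm2), -1.35 (Act57B), -0.82 (bt) and 0.03 (sls). The part of muscle sheath in the falls of the lncRNAs was not tested.

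All 34 called members lay on the 4 large autosomal arms. Of the 20 members on X, 0 were called in edgeR's test, where 3 had an unadjusted p under 0.05, and of the 179 on 2L, 2R, 3L and 3R 34 (19.0%) were called. Over all genes the shares were 0.769% on X and 3.21% on those arms. The other lncRNA genes with at least 10 counts gave 0 calls among 113 on X and 98 among 1045 on the autosomal arms (9.38%), with 8 of the 113 at an unadjusted p under 0.05 in edgeR and 1 called by DESeq2. The log2 fold changes of the X-linked members ran from -0.24 to 0.57 with a median of -0.05, and the 180 others had a median of -0.24. The X-linked member nearest to the threshold was lncRNA:CR43279 (FBgn0262968), with 44.1, 44.2 and 39.5 CPM in the 3 overexpression libraries, against 28.0, 28.4 and 30.0 CPM in the 3 control libraries. Its log2 fold change was 0.57 (SE 0.149, edgeR adjusted p = 0.0506), it was called after filterByExpr, edgeR's filter on low counts, and by DESeq2, which called 1 further X-linked member, lncRNA:CR43264. Across the 15 alternative fits, 0 to 2 of the 20 X-linked members were called. The difference between X and the autosomes was not tested.

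**Figure D4:**
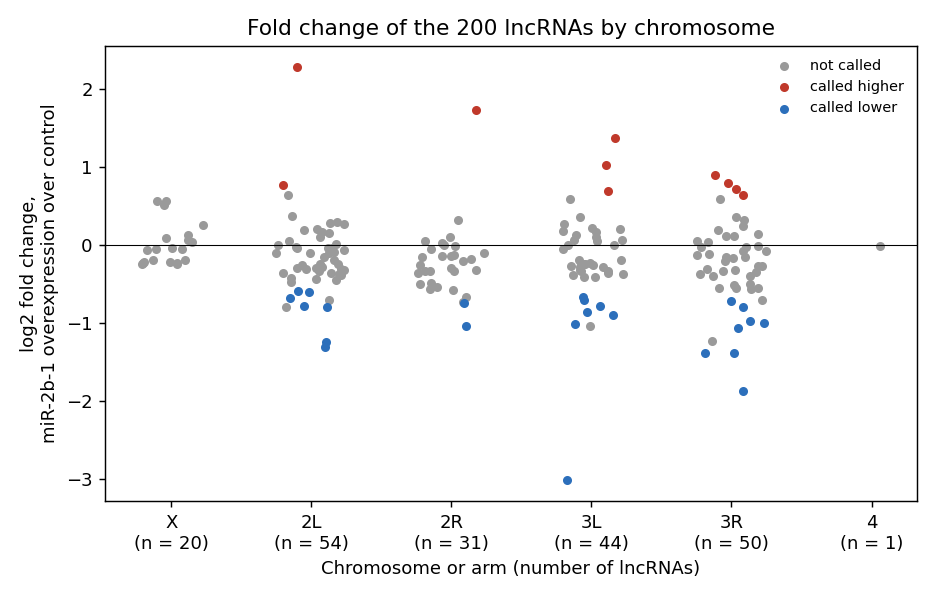
log2 fold change of miR-2b-1 overexpression over control (y axis) of the 200 lncRNAs by chromosome or arm (x axis), with genes called higher in red, called lower in blue and not called in grey. The 20 X-linked genes lie between -0.24 and 0.57 and include no called gene, while 2L, 2R, 3L and 3R each hold genes called in both directions.

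A lncRNA can share a promoter region or a transcription unit with a neighbouring gene, so the nearest protein-coding gene was set beside each member. Of the 169 different coding genes nearest to a member that passed the filter, 10 were called (5.92%), where 3.87% of all genes that passed it were. For 29 of the 34 called members that gene passed the filter, and 3 of the 29 coding genes were called. The sign of the fold change was shared in 15 of the 29, and in 83 of the other 151 members. CG42650, 3094 bases from CR45560, had 89.8 ± 10.8 CPM under overexpression and 149 ± 11.9 CPM in the control (SD, n = 3 each), or -0.73 on the log2 scale (edgeR adjusted p = 0.00610). CG15147, 56 bases from lncRNA:CR44413, had 154 ± 7.39 CPM under overexpression and 226 ± 15.8 CPM in the control (SD, n = 3 each), or -0.55 on the log2 scale (edgeR adjusted p = 0.0293), beside -0.77 for CR44413 itself. In both of these pairs the lncRNA and the coding gene were lower under overexpression. Ir41a, an ionotropic receptor gene 10040 bases from CR44105, had 4.71 ± 0.981 CPM under overexpression and 9.73 ± 0.0334 CPM in the control (SD, n = 3 each), or -1.05 on the log2 scale (edgeR adjusted p = 0.00860), the opposite direction to the lncRNA. Without control replicate 2 these 3 coding genes lost the call, with edgeR adjusted p of 0.0764 for CG42650, 0.211 for CG15147 and 0.0564 for Ir41a. CG15147 also lost it without control replicate 3 (0.0708), overexpression replicate 1 (0.137) and overexpression replicate 2 (0.144), and Ir41a without overexpression replicate 1 (0.0675), all as edgeR adjusted p. CR44413 was called in 4 of the 6 fits without 1 library. The hosts Pxn, Axn, Sarm and gpp were not called in the main fit. Pxn, around CR45981, had 8.27 ± 1.80 CPM under overexpression and 9.12 ± 1.66 CPM in the control (SD, n = 3 each), or -0.14 on the log2 scale (edgeR adjusted p = 0.896). Axn, around CR46111, had 24.8 ± 6.19 CPM under overexpression and 20.8 ± 0.391 CPM in the control (SD, n = 3 each), or 0.25 on the log2 scale (edgeR adjusted p = 0.613). Sarm, around CR43974, had 12.0 ± 3.08 CPM under overexpression and 18.0 ± 2.35 CPM in the control (SD, n = 3 each), or -0.59 on the log2 scale (edgeR adjusted p = 0.147). It was called lower with upper-quartile normalization (edgeR adjusted p = 0.0428) and without overexpression replicate 3 (edgeR adjusted p = 0.0243), the opposite direction to CR43974. The libraries of the genotypes overlapped in Pxn and in Axn, but not in Sarm. In gpp, around CR44017, the level was 234 ± 40.5 CPM under overexpression and 196 ± 44.4 CPM in the control (SD, n = 3 each), or 0.25 on the log2 scale (edgeR adjusted p = 0.587). Ggamma30A, the coding gene nearest to CR42844, was not called in the main fit. Over the fits without 1 library its log2 fold change ran from 0.78 to 1.14, the direction of CR42844. It was called higher with the accessory gland covariate (edgeR adjusted p = 0.0369) and without control replicate 3 (edgeR adjusted p = 0.0486). TotZ, beside CR44048, and CG14315, beside CR45103, had 0 CPM in all 6 libraries.

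At the most abundant lncRNA, the coding gene alone was called. The gene nearest to CR9284, tpr (FBgn0034661), lies 2498 bases away and was picked here after its values were seen. It had 3, 2 and 7 counts in the overexpression libraries, against 291, 357 and 264 in the control libraries, a log2 fold change of -6.69 (edgeR adjusted p = 5.70e-10). CR9284 itself had 2059 ± 255 CPM under overexpression and 2460.3 ± 187 CPM in the control (SD, n = 3 each), which is a difference of -0.26 in log2 CPM (SE 0.150, edgeR adjusted p = 0.475). Of 13 pairs of members within 20 kb of each other, 0 had both members called, 5 had 1 called and 8 had none. With 17.0% of all 200 members called, these 13 pairs are too few to tell whether neighbours changed together. lncRNA:CR45982, 5411 bases from CR45981 and on the other strand, had 111, 109 and 86.4 CPM in the 3 overexpression libraries, against 82.1, 103 and 96.0 CPM in the 3 control libraries, or 0.13 on the log2 scale (edgeR adjusted p = 0.815). Its groups overlapped, whereas CR45981 was far lower under overexpression.

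Of the 2 members with a given name, lncRNA:Hsromega (FBgn0001234, chromosome 3R, 21296127 to 21317836) is the heat shock RNA omega gene, whose nuclear transcript organises the omega speckles, bodies that store RNA-binding proteins of the hnRNP type. It had the longest exons in sum of the 200. Hsromega had 13.8, 26.6 and 19.4 CPM in the 3 overexpression libraries, against 68.4, 45.9 and 25.9 CPM in the 3 control libraries. Control replicate 3 lay just under overexpression replicate 2, so the groups overlapped, and the log2 fold change of -1.23 (SE 0.453, edgeR adjusted p = 0.321) did not pass in edgeR, while DESeq2 called it (adjusted p = 0.000871). lncRNA:Yu (FBgn0061188, chromosome 2R, 24498083 to 24498669) had 20.6, 23.3 and 26.9 CPM in the 3 overexpression libraries, against 25.0, 25.4 and 28.3 CPM in the 3 control libraries, which is a difference of -0.15 in log2 CPM (SE 0.163, edgeR adjusted p = 0.777), with overlapping groups. Of 8 omega speckle proteins and related hnRNPs, 0 were called, and their median log2 fold change was 0.40. Hrb87F, a core hnRNP of the speckles, averaged 142.1 ± 29.4 CPM under overexpression and 110.9 ± 5.16 CPM in the control (SD, n = 3 each), with an edgeR adjusted p of 0.269. Testis transcription depends on the tMAC and tTAF complexes, whose loss arrests spermatocytes, and 0 of their 12 genes were called, with a median log2 fold change of 0.28. The tMAC subunit gene achi averaged 50.2 ± 6.22 CPM under overexpression and 33.2 ± 3.39 CPM in the control (SD, n = 3 each; edgeR adjusted p = 0.0506). DESeq2 called achi higher (adjusted p = 0.0110). So did edgeR with the accessory gland covariate (adjusted p = 0.0230) and without overexpression replicate 3 (adjusted p = 0.0106). With at least 10 counts required in every sample, edgeR also called it (adjusted p = 0.0475). The nuclear exosome degrades many noncoding transcripts, and 0 of its 11 genes were called, with a median of 0.07. In edgeR, 6 of the 12 tMAC and tTAF genes had an unadjusted p under 0.05. So did 5 of the 8 speckle genes and 3 of the 11 exosome genes. The share of all genes at that level is not given here, so these counts cannot be set against it. DESeq2 called 2 of the 12 higher and 1 lower, 1 of the 8 higher and 1 of the 11 higher. Over all 17559 genes it called 743.

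A few members varied more between libraries of one genotype than between genotypes. In 170 of the 200 members the SD of log2 CPM within groups was under 0.3, and its median was 0.19, whereas 4 members exceeded 1. lncRNA:CR44389 (FBgn0265539, chromosome 2R, 17188796 to 17189095) had 14.3, 66.7 and 290.5 CPM in the 3 overexpression libraries, against 320.1, 3.55 and 229 CPM in the 3 control libraries. lncRNA:CR43239 (FBgn0265270, chromosome 2L, 17353730 to 17354668) had 9.02, 35.5 and 154 CPM in the 3 overexpression libraries, against 234, 2.52 and 106 CPM in the 3 control libraries. lncRNA:CR43994 (FBgn0264726, chromosome 3L, 12027801 to 12028153), in the span of rols, a gene of muscle cell fusion, had 4.32, 10.4 and 108 CPM in the 3 overexpression libraries, against 87.4, 1.95 and 68.8 CPM in the 3 control libraries. In these 3 lncRNAs overexpression replicate 3 and control replicates 1 and 3 were high, and control replicate 2 was the lowest. lncRNA:CR43634 (FBgn0263625, chromosome 3R, 25794848 to 25795186) had 5.86, 13.9 and 33.5 CPM in the 3 overexpression libraries, against 36.2, 11.7 and 30.3 CPM in the 3 control libraries, with the same 3 libraries high. The accessory gland and duct genes took 0.0610%, 0.144% and 1.16% of the counts in overexpression replicates 1, 2 and 3, and 0.985%, 0.0351% and 0.603% in control replicates 1, 2 and 3. The ratio of the highest to the lowest library was 90.3 for CR44389, 92.9 for CR43239, 55.5 for CR43994 and 6.18 for CR43634. None of the 4 was called, with standard errors of 0.829 to 1.83 on the log2 scale in the fit without covariates. With the accessory gland level as a covariate, CR43994 and CR43634 were called lower, with log2 fold changes of -0.87 and -0.84 (edgeR adjusted p = 0.0113 and 0.00771).

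**Figure D5:**
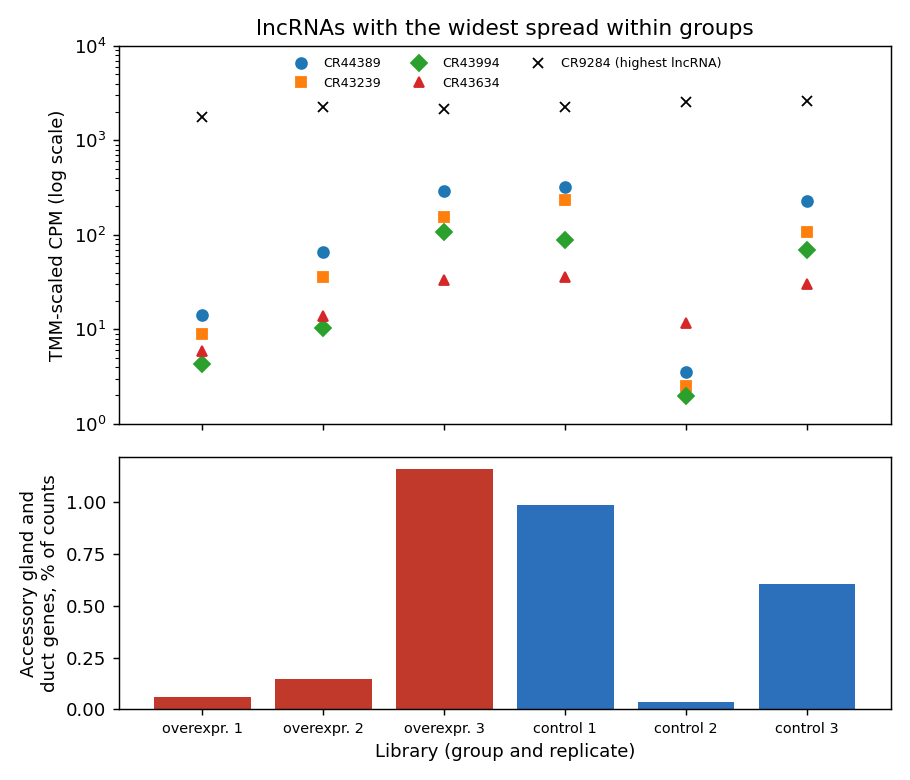
Upper panel, TMM-scaled CPM (y axis, log scale) of the 4 lncRNAs with the widest spread within groups, and of CR9284 for scale, in each library (x axis, miR-2b-1 overexpression replicates 1 to 3, then control replicates 1 to 3). Lower panel, the percentage of counts on 36 accessory gland and ejaculatory duct genes in the same libraries, which is highest, as are the 4 lncRNAs, in overexpression replicate 3 and control replicates 1 and 3.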

How the data were processed

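Total RNA of adult testes was made into 3 miR-2b-1 overexpression and 3 control cDNA libraries with the Illumina TruSeq RNA kit. Whether RNA with a poly(A) tail was selected is not stated in the sources used here, so lncRNAs without one may be missed. According to the study's methods STAR was the aligner, and the authors ran featureCounts with an Ensembl gene annotation. The deposited values are raw counts per gene, without normalization, and no row lacked a gene. The strand and multi-mapping settings are not given in the sources used here. A deposited table of the authors' own comparison (log2 fold changes and p-values) and 6 per-sample columns of a table of the whole series were not used.

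A quasi-likelihood model of edgeR 4.0.16 (R 4.3.3) was fitted to all 17559 genes with TMM scaling, the robust prior of the older method and genotype alone in the design, without a filter on low counts. Adjusted p-values are Benjamini-Hochberg values over all genes, with a threshold of 0.05. CPM in the comparisons is TMM-scaled, and mean CPM in the ranking used library totals. The standard error is the size of the log2 fold change over the square root of F. Symbols, coordinates and exon lengths came from Ensembl release 115 (BDGP6, dm6) for 17253 of the 17559 identifiers, whereas the annotation used for counting was an older release for that assembly. The members and the gene lists were chosen with earlier results of these data known. The genes named were the 10 highest by mean CPM, the 5 highest per kilobase, members with a given name and ranks 199 to 202. Also named were up to 8 in each direction with the lowest p, and the 4 with the widest spread within groups. Of the coding genes nearest to the called members, only some are given here. Other genes named were picked after their values were seen. The fit was tested on simulated data. No 2 of the 6 libraries agreed within sampling noise, and the labels do not say whether replicates came from separate crosses, so p-values measure the spread between these libraries alone. The alternatives were DESeq2 1.42.0, other normalizations, filters, priors and thresholds, other rankings, an accessory gland covariate (36 genes), a replicate block and leaving out each library. A search for miR-2b seed matches was not run, because no genome sequence was used here.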

Additional observations from a re-analysis of the deposited data

How the results depend on the processing

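The 34 called members became 19 (12 lower) with a prior that is not robust and 21 (14 lower) at an adjusted p under 0.01, and the 493 calls over all genes became 236 and 251. DESeq2 called 743 and the accessory gland covariate 902 of all genes, and 48 and 46 members. Leaving out 1 library gave 18 to 44 called members, 4 to 13 higher and 11 to 31 lower, and 205 to 923 over all genes. A list ranked on the overexpression libraries alone held 15 called higher and 15 lower, and one ranked on the control libraries alone 3 higher and 28 lower. The median log2 fold change of the members stayed between -0.28 and -0.10 under every alternative. The same-numbered samples of the 2 groups did not all deviate together (correlations -0.58, 0.30 and 0.54), so the numbers were not taken as pairs. With the replicate number as a block, 23 members were called (7 higher, 16 lower) and 349 genes in all. Of 1008 values of 68 named genes under the alternatives, 921 kept direction and side of the threshold, 45 lost and 26 gained the call, and 16 changed sign in 8 genes, 0 of them called in either fit. Over the fits that left out 1 library each, the log2 fold change ran from -0.086 to 0.26 for CR32690, from -0.37 to 0.0024 for CR32657, from -0.19 to 0.25 for CR42767, from -0.53 to 0.011 for CR43157, from -2.19 to 0.091 for CR44389, from -2.36 to 0.29 for CR43239, from -2.84 to 0.22 for CR43994 and from -0.32 to 0.014 for Pxn. It was -0.016 for CR42767 with upper-quartile normalization, and 0.18 for CR44389 and 0.20 for CR43239 with the block. The causes of these shifts were not tested. At the median standard error of the members, 0.17 on the log2 scale, 3 libraries a group limit the detectable change.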

Other observations

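Below rank 200, some lncRNA genes were on in one genotype and near or at 0 counts in the other. The genes given here, and those in the next paragraph, were picked after their values were seen. Of the 1163 other lncRNA genes with at least 10 counts, 32 (2.75%) were called higher and 66 (5.67%) lower under overexpression. Over all genes 1.29% were called higher and 1.51% lower. lncRNA:CR44615 (FBgn0265826, chromosome 2L, 9124032 to 9124500), at rank 223, had 569, 562 and 613 counts in the overexpression libraries and 6, 3 and 1 in the control libraries, a log2 fold change of 6.93 (edgeR adjusted p = 6.08e-08). lncRNA:CR44823 on 2L had 111, 134 and 131 counts under overexpression and 0 in each control library. The opposite pattern was seen in lncRNA:CR43453 on 3R, with 0 counts in each overexpression library and 119, 126 and 198 in the control libraries. lncRNA:CR45410 on 3L had 10, 8 and 12 counts under overexpression and 191, 279 and 253 in the control, a log2 fold change of -5.06 (edgeR adjusted p = 2.22e-09). The parental strain differs between the genotypes with the transgene, and its part in these on and off patterns cannot be told apart.

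Among lncRNAs with a given name below the list, lncRNA:cherub, at rank 244, is an RNA known from brain tumour stem cells of the fly. It averaged 9.87 ± 0.499 CPM under overexpression and 12.2 ± 2.04 CPM in the control (SD, n = 3 each, edgeR adjusted p = 0.480). lncRNA:TS16, at rank 321, averaged 5.87 ± 1.04 CPM under overexpression and 10.1 ± 0.761 CPM in the control, with an edgeR adjusted p of 0.0503. It was called in 6 of the 15 alternative fits.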
